A study of Rattus norvegicus with 6 samples.

Results

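Distal accessible chromatin sites of at least 1000 bp were followed in rat pancreatic islets between the suckling period and adulthood. They were taken from the joint table of accessible sites (ACS) of both ages as the distinct regions of the distal class with a width of 1000 bp or more, and will be called wide distal ACS. There are 1184 of them among 101603 distinct ACS in all, which is 1.17%. The distal class of the table holds the ACS recorded at 10000 bp or more from the start of their assigned gene, apart from a few at exactly 1000 bp.

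Every count below is a count of integrations of Tn5, the enzyme of ATAC-seq, which reaches DNA where chromatin is open. The libraries come from Sprague–Dawley rats, untreated and without any transgene, and from dissociated cells of whole islets, so all islet cell types are mixed. The 3 adult libraries (replicates 4, 5 and 6) were made from males of about 3 months, with 1 rat per library. The 3 P10 libraries (replicates 1, 2 and 3) were made from pups of both sexes killed 10 days after birth, with 1 litter per library. The pancreases of pups were pooled and shaken by hand in collagenase, whereas in adults the collagenase was injected into the duct. Each adult library also held fewer integrations in ACS than each P10 library, in number and per sequenced read. Age, sex, the use of a single rat or a litter, this digestion and the part of the reads in ACS change together between the groups. They cannot be told apart.

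Accessible DNA far from gene starts often holds enhancers, stretches where transcription factors bind and from which they act on promoters along the folded chromosome. Most such sites are short, about the space freed by a single displaced nucleosome, and a broad one can hold several clusters of binding sites side by side. In islets, distal sites carry much of the binding of the factors that set the identity of beta and alpha cells, and broad groups of them near identity genes are often called stretch enhancers or super-enhancers.

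Wide sites were uncommon away from promoters. A width of 1000 bp or more was reached by 15.4% of the 11055 ACS at transcription start sites (TSS class), by 3.60% of the 10005 proximal ACS and by 1.47% of the 80543 distal ACS. Among the wide distal ACS the median width was 1133 bp and the largest was 2817 bp. Most lay close to the limit, with 471 of 1000 to 1099 bp, 280 of 1100 to 1199 bp, 356 of 1200 to 1499 bp and 77 above that.

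The wide distal ACS were strongly accessible. Counts were scaled for the integrations in ACS of each library with the trimmed mean of M values (TMM) and are given as CPM. The median wide distal ACS had a mean of 30.0 CPM over the 6 libraries (quartiles 19.0 and 48.1), against 3.99 CPM for the 79359 narrower distal ACS. Per kb of width the medians were 25.8 and 11.1 CPM, so the density of integrations was higher as well. The widths are those of peaks called on reads of these same libraries. A higher level therefore follows in part from the width limit. The median count of a wide distal ACS was 346, 293.5 and 239 in adult replicates 4, 5 and 6 and 654, 403.5 and 553 in P10 replicates 1, 2 and 3. No single count was below 19, and 31 of the 1184 had a mean count under 100. No filter on low counts was applied, so all 1184 entered the test.

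The wide distal ACS were compared between the ages relative to all ACS, since the scaling centres the fold changes and leaves a change shared by all ACS unseen. A log2 fold change above 0 stands for higher accessibility in adult islets, with columns assigned to the ages by the letters and numbers of their names alone. The direction of every fold change, call and share in this report rests on these labels. Were the labels exchanged, Up and Down would change places throughout. An ACS was called Up or Down when edgeR's quasi-likelihood test gave a p-value under 0.05 and a Benjamini-Hochberg adjusted p (FDR) under 0.2 over all 101603 ACS. The shares of all ACS called, here and below, are those under TMM and were not read under other scalings. Of the 1184 wide distal ACS, 110 were called Up (9.29%, against 12.3% of all ACS) and 70 were called Down (5.91%, against 6.63%). The adult and P10 libraries did not overlap at 256 of them (21.6%, against 24.7% of all ACS), 129 with higher adult and 127 with higher P10 values. The median log2 fold change was 0.015, with quartiles of -0.15 and 0.21 and extremes of -1.50 and 1.25, against a median of -0.0076 over all ACS and 0.020 over the narrower distal ACS. An absolute log2 fold change under 0.5 was found for 90.7% of the wide distal ACS and for 67.2% of the narrower ones. The median standard error was 0.18 for the former and 0.32 for the latter.

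The counts of calls rest in part on single libraries. Without P10 replicate 2, 46 wide distal ACS were called Up and 39 Down, and without P10 replicate 3 the counts were 63 and 44. Without adult replicate 6, 72 were called Up. Of the 110 Up sites, 35 kept their call whichever library was left out, and of the 70 Down sites 24 did. The called wide distal ACS had a median log2 fold change of 0.53 for Up and -0.54 for Down, against 0.90 and -0.96 for the called narrower distal ACS, most of which are weaker. Between 20 and 40 CPM, the range that holds the largest number of wide distal ACS, the medians were 0.55 and -0.53 for wide and 0.69 and -0.53 for narrower sites. A log2 fold change beyond 1 was seen at 7 Up and 3 Down wide distal ACS.

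Shares of calls were also read for wide and narrower distal ACS of the same level. Between 10 and 20 CPM, 4.38% of 251 wide distal ACS were Up, against 29.2% of 9623 narrower ones. Between 20 and 40 CPM the shares were 11.8% of 451 and 32.6% of 3768, and between 40 and 80 CPM they were 13.9% of 294 and 26.3% of 912. At 80 CPM or more, 4.39% of 114 wide and 12.3% of 285 narrower distal ACS were Up. Up calls were thus less frequent among the wide sites in each of these ranges. For Down calls the shares in the same 4 ranges were 6.77, 7.76, 3.06 and 1.75% for wide and 4.78, 3.45, 3.07 and 1.75% for narrower sites, so the wide sites were higher in the lower ranges alone. At equal level a narrower site holds its integrations in less space: between 20 and 40 CPM the median density was 24.3 CPM per kb in wide and 41.2 CPM per kb in narrower sites. The difference between these shares was not tested.

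Along the whole range of widths of distal ACS, the share called Up was highest in the middle. It was 11.7% at 200 to 399 bp, 16.8% at 400 to 599 bp, 18.9% at 600 to 799 bp and 14.5% at 800 to 999 bp. Within the wide distal ACS it was 12.3% at 1000 to 1099 bp, 8.57% at 1100 to 1199 bp and 6.18% at 1200 to 1499 bp. Of the 77 widest, from 1500 bp, 6 were Up and 10 Down (7.79 and 12.99%, against 12.3 and 6.63% of all ACS). The density of integrations rose along the same scale, from a median of 8.97 CPM per kb in the narrowest of these groups to 35.2 CPM per kb in the widest. Width and density were both read from these libraries.

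Wide sites at promoters gave other counts. Of the 1699 wide TSS ACS, 32 were Up (1.88%) and 105 Down (6.18%), with a median log2 fold change of -0.064, and of the 360 wide proximal ACS 7 were Up (1.94%) and 37 Down (10.3%), against 12.3% Up and 6.63% Down of all ACS. The balance of Up and Down calls at the wide distal ACS depended on the scaling and on the width limit. With column sums as library sizes there were 76 Up and 156 Down, with cyclic loess 92 and 157, and at a limit of 1200 bp 28 and 28. Differences between the kinds of wide ACS were not tested.

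As a whole, the wide distal ACS held about a constant part of each library. Their share of all integrations in ACS was 5.02, 5.60 and 5.38% in the adult libraries and 5.26, 5.45 and 5.51% in the P10 libraries. Adult replicates 4 and 5 were the lowest and the highest of all, and the groups overlapped (exact permutation test, p = 0.8). The 95% Wilson intervals of these shares span at most 0.031 percentage points and cover counting error alone. Without adult replicate 4 the difference between the age means turned from -0.072 to 0.083 percentage points.

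Set against the narrower distal ACS, the wide ones held relatively less in adult islets. The log2 ratio of integrations in wide to narrower distal ACS was -3.54, -3.42 and -3.48 in the adult libraries and -3.40, -3.37 and -3.38 in the P10 libraries. Every adult value lay below every P10 value, with a mean difference of -0.097. The exact permutation p was 0.1, the smallest that 3 against 3 libraries can give, and 0.4 after Benjamini-Hochberg adjustment over the 4 values compared in this way. At a limit of 1200 bp the groups overlapped (exact p = 0.3). The narrower distal ACS themselves held 58.3, 59.9 and 60.02% in the adult libraries and 55.4, 56.2 and 57.4% in the P10 libraries. That share was higher in each adult library, whereas the share in wide TSS ACS, 7.92, 7.29 and 7.74% in the adult libraries and 8.40, 8.35 and 8.30% in the P10 libraries, was lower in each adult library.

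A small number of wide distal ACS carried much of the signal. The 10 strongest held 10.7, 15.6 and 12.6% in the adult libraries and 11.2, 12.5 and 12.4% in the P10 libraries of all integrations in wide distal ACS. Adult replicate 5 was the highest and adult replicate 4 the lowest of the 6 libraries, and the groups overlapped (exact p = 0.7). Without adult replicate 5 the difference between the age means went from 0.93 to -0.39 percentage points, and without adult replicate 4 it was 2.24 percentage points and the groups no longer overlapped. The share of wide distal integrations that fell inside genes was 9.11, 8.08 and 9.12% in the adult libraries and 8.79, 8.19 and 8.28% in the P10 libraries. Here adult replicate 5 was the lowest, and the groups overlapped again (exact p = 0.4). Without it the difference between the age means went from 0.35 to 0.69 percentage points and the overlap was gone, and without adult replicate 4 or 6 the difference was 0.18 percentage points.

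The adult libraries were unequal at the wide distal ACS in a way that depended on level. Among the 294 sites of 40 to 80 CPM, adult replicate 4 was the highest adult library at 174, adult replicate 5 at 39 and adult replicate 6 at 81. Among the 33 sites of 150 CPM or more, the numbers were 5, 21 and 7. The median coefficient of variation among adult libraries was 13.3% in the former and 21.6% in the latter group, and among P10 libraries it was 8.66 and 11.2%.

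Most wide distal ACS lie between genes. With respect to the nearest gene, 626 lie upstream, 403 downstream and 150 inside it, 3 overlap the gene's end and 2 its start. Sites inside genes made up 12.7% of the wide and 21.4% of the narrower distal ACS. Of the 150 inside genes, 25 were Up (16.7%) and 7 Down (4.67%), against 17.1 and 6.66% of the narrower distal ACS inside genes. Upstream sites were Up in 8.47% and Down in 5.27% of cases, against 13.1 and 6.55% of the narrower ones. Downstream sites gave 7.94 and 7.20%, against 12.7 and 6.21%. Over all ACS, 12.3% were Up and 6.63% Down, and differences between these locations were not tested.

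Calls were also counted by distance from the gene. Of 161 wide distal ACS outside genes and less than 20 kb from one, 8 were Up and 15 Down (4.97 and 9.32%, against 12.3 and 6.63% of all ACS). At 20 to 100 kb there were 26 Up and 21 Down among 429 (6.06 and 4.90%), at 100 to 500 kb 41 and 22 among 355 (11.5 and 6.20%), and at 500 kb or more 10 and 4 among 84 (11.9 and 4.76%). These counts are small, and differences between the ranges were not tested. The narrower distal ACS had more Up than Down calls in each of these ranges, with 11.6 and 6.81% in the nearest, 13.2 and 6.66% in the next, 13.7 and 6.16% in the third and 11.2 and 5.94% in the farthest. The median shortest distance to the gene was 71449 bp for wide and 78141 bp for narrower distal ACS.

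Counts on chromosomes 3, 16 and 18 are given because their values stood out once seen, and the spread over chromosomes was not tested. Chromosome 3 had 67 wide distal ACS, of which 2 were Up and 14 Down (2.99 and 20.9%, against 12.3 and 6.63% of all ACS), with a median log2 fold change of -0.24. The narrower distal ACS of chromosome 3 also leaned this way, with 9.39% Up, 13.8% Down and a median of -0.13. On chromosome 18, 12 of 55 were Up (21.8%), and on chromosome 16, 10 of 45 (22.2%), against 21.4 and 16.7% Up among the narrower distal ACS there. Of the 10 on chromosome 16, 6 belong to the neighbouring groups near Zfp868 and Lzts1 described below. Leaving out single libraries changed these counts, to between 5 and 19 Up on chromosome 18 (19 without adult replicate 5, 5 without P10 replicate 2), between 2 and 14 Up on chromosome 16 (14 without adult replicate 4, 2 without adult replicate 6) and between 8 and 14 Down on chromosome 3 (8 without adult replicate 6). Chromosomes 10 and 19 were also picked once their values were seen. Chromosome 10 had 0 Up and 3 Down (16.7%) of 18, and chromosome 19 had 5 Up (17.9%) and 1 Down of 28. The median log2 fold change of all ACS was -0.18 on chromosome 10, against -0.14 on the X chromosome.

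The X chromosome holds 37 wide distal ACS with a median log2 fold change of -0.21, against -0.13 for its 1985 narrower distal ACS. Of the 37, 5 were Down (13.5%, against 6.63% of all ACS and 8.92% of the narrower distal ACS of the X chromosome), near Dusp21, Pls3, Spaca5 and Fgf13 and at chrX:21615527-21616658, whose gene ID is Smc1a in RefSeq. The last 3 named in this way, Spaca5, Fgf13 and the Smc1a site, were chosen after their values were seen. At the site near Fgf13, a growth factor homologue that acts on sodium channels inside neurons, values were 18.9, 18.7 and 14.4 CPM in the adult libraries and 20.5, 27.2 and 27.3 CPM in the P10 libraries. Each adult library was below each P10 library (log2 fold change -0.52 ± 0.20 (SE), adjusted p = 0.103), and the call was lost without adult replicate 6, P10 replicate 2 or P10 replicate 3 (adjusted p from 0.286 to 0.323). The call at Spaca5 was lost without adult replicate 6, P10 replicate 1 or P10 replicate 2 (adjusted p from 0.253 to 0.47) and that at the Smc1a site without adult replicate 5, adult replicate 6 or P10 replicate 1 (adjusted p from 0.217 to 0.498). Without adult replicate 6, or without P10 replicate 2, 3 of the 37 were Down. The P10 libraries come from pups of both sexes and the adult ones from males, and the part of sex in these values was not tested.

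The Up sites with the smallest p-values, among those whose groups do not overlap, lie near genes of many kinds. The first is inside Phactr2, a regulator of protein phosphatase 1 and actin (chromosome 1, 9084067 to 9085191). Its values were 67.96, 48.2 and 59.2 CPM in the adult libraries and 29.9, 25.7 and 24.2 CPM in the P10 libraries. All 3 adult values were well above the P10 values (log2 fold change 1.14 ± 0.17 (SE), adjusted p = 6.07e-05). A second wide distal ACS inside Phactr2 had a log2 fold change of -0.39 with overlap and was not called. The second lies 18742 bp upstream of Irf4, a transcription factor of lymphoid cells, with 71.6, 52.1 and 58.4 CPM in the adult libraries and 29.6, 24.7 and 30.6 CPM in the P10 libraries. It had the same pattern (log2 fold change 1.10 ± 0.17 (SE), adjusted p = 7.61e-05), and a second wide distal ACS of the gene was not called.

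The largest Up change was 482182 bp downstream of Commd10, which belongs to a family of adaptors in endosomal sorting. Values there were 24.5, 34.8 and 35.4 CPM in the adult libraries and 12.9, 16.3 and 10.6 CPM in the P10 libraries. Adult replicate 4 was the lowest adult library and still exceeded every P10 library (log2 fold change 1.25 ± 0.21 (SE), adjusted p = 0.000171). A site on the same chromosome near Dsg4, an adhesion protein of desmosomes, had 63.6, 43.04 and 53.6 against 28.3, 23.9 and 27.4 CPM in adult and P10 libraries (log2 fold change 1.01 ± 0.17, adjusted p = 0.000284). Chromosome 18 also holds the site 690336 bp upstream of Sall3, a zinc finger transcription factor, with 52.1, 43.7 and 40.9 against 24.96, 24.3 and 25.6 CPM (log2 fold change 0.87 ± 0.17, adjusted p = 0.00093). Its P10 values were close together and its lowest adult value was well above them.

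The gene ID nearest the site at chr17:39815581-39816662 has no symbol in the table and is Sox4 in RefSeq, a transcription factor used in islet development. Its values were 39.4, 27.3 and 36.6 CPM in the adult libraries and 12.5, 17.1 and 16.1 CPM in the P10 libraries. The adult libraries were all above the P10 libraries (log2 fold change 1.18 ± 0.20 (SE), adjusted p = 0.00018). A second wide distal ACS of the same gene, 282055 bp upstream of it, had 44.1, 33.3 and 41.8 CPM in the adult libraries and 23.4, 25.1 and 21.8 CPM in the P10 libraries and was noticed after its values were seen. It was Up as well (log2 fold change 0.76 ± 0.17 (SE), adjusted p = 0.00455). So both wide distal ACS assigned to Sox4 were more accessible in adult islets, while its TSS ACS had a mean of 55.6 CPM in adult and 48.5 CPM in P10 libraries and was not called.

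The other Up sites of this group lie near Insig2, Ido1, Svip, St3gal6 and Nedd1, besides the site near Mir216b given further below. The site 53663 bp upstream of Insig2, which binds the sterol sensor SCAP in the endoplasmic reticulum, had 83.9, 64.9 and 83.1 against 43.4, 36.7 and 42.9 CPM (log2 fold change 0.91 ± 0.16, adjusted p = 0.000321). Near Ido1, an enzyme of tryptophan breakdown, values were 89.2, 69.1 and 80.7 against 39.4, 40.01 and 50.4 CPM (log2 fold change 0.88 ± 0.16, adjusted p = 0.000533). The lowest adult value was well above the highest P10 value at both. Svip, whose product binds the ATPase VCP in protein degradation, had a site 9424 bp downstream with 34.6, 30.9 and 44.6 against 18.5, 15.3 and 19.7 CPM (log2 fold change 1.04 ± 0.19, adjusted p = 0.000489). Inside St3gal6, which adds sialic acid to glycans, values were 29.9, 33.1 and 39.8 against 17.9, 18.97 and 17.2 CPM (log2 fold change 0.93 ± 0.18, adjusted p = 0.00108). Downstream of Nedd1, which brings gamma-tubulin to centrosomes, they were 38.3, 24.7 and 43.2 against 17.99, 15.05 and 19.03 CPM (log2 fold change 1.02 ± 0.20, adjusted p = 0.00109). At Nedd1 adult replicate 5 was nearer to the P10 libraries than the other adult libraries were.

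The Down site with the smallest p-value lies 94036 bp upstream of Ctdspl, a phosphatase that acts on the retinoblastoma protein (chromosome 8, 126195807 to 126196929). Its values were 60.4, 72.9 and 69.7 CPM in the adult libraries and 112, 157 and 141 CPM in the P10 libraries. Every P10 library was above every adult library (log2 fold change -1.02 ± 0.15 (SE), adjusted p = 7.08e-05). Skint1, known from the selection of T cells in skin, is the nearest gene of a site 691656 bp away with 7.05, 8.08 and 7.86 CPM in the adult libraries and 19.1, 24.8 and 17.2 CPM in the P10 libraries. This was a large change at a weak site (log2 fold change -1.41 ± 0.22 (SE), adjusted p = 0.000105).

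The largest Down change was also at a weak site, 877012 bp upstream of Prkacb, which encodes a catalytic subunit of protein kinase A. The values were 2.80, 1.85 and 3.61 CPM in the adult libraries and 6.74, 8.92 and 7.56 CPM in the P10 libraries, and all adult values were under the lowest P10 value (log2 fold change -1.50 ± 0.30 (SE), adjusted p = 0.00133). Near Mier3, a partner of histone deacetylases, the values were 22.1, 26.9 and 25.5 against 44.1, 55.6 and 40.4 CPM (log2 fold change -0.91 ± 0.17, adjusted p = 0.000904). Upstream of Rin2, an activator of the endosomal GTPase Rab5, they were 15.7, 21.9 and 14.8 against 30.2, 38.2 and 29.8 CPM (log2 fold change -0.90 ± 0.19, adjusted p = 0.00284). In both, the P10 libraries were high throughout and P10 replicate 2 was the highest.

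Further Down sites lie near Scn9a, Exoc1, Tpbg, Btbd3 and LOC499331. The site 65081 bp upstream of Scn9a, a sodium channel of sensory neurons that is also found in beta cells, had 15.5, 13.05 and 13.1 against 23.8, 20.6 and 27.6 CPM (log2 fold change -0.79 ± 0.20, adjusted p = 0.0103). Downstream of Exoc1, a part of the exocyst that tethers vesicles to the plasma membrane, values were 13.3, 15.5 and 14.95 against 23.1, 26.1 and 24.4 CPM (log2 fold change -0.75 ± 0.19, adjusted p = 0.0112). Upstream of Tpbg, a surface glycoprotein of embryonic tissues, they were 14.5, 13.05 and 12.8 against 20.6, 28.2 and 27.7 CPM (log2 fold change -0.92 ± 0.20, adjusted p = 0.00288). The adult libraries of these 3 sites lay within a narrow band, and the groups were separate. Upstream of Btbd3, which shapes dendrites, values were 25.3, 19.7 and 25.5 against 38.02, 36.4 and 43.8 CPM (log2 fold change -0.75 ± 0.18, adjusted p = 0.00589), and here the TSS ACS of the gene was called Down too, with means of 25.7 CPM in adult and 34.8 CPM in P10 libraries. A site 130607 bp from LOC499331, named C1h9orf40 in RefSeq, had 11.7, 11.7 and 10.6 against 19.4, 23.3 and 23.3 CPM (log2 fold change -0.96 ± 0.20, adjusted p = 0.00223).

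The remaining Down sites of the group are on the X chromosome. Downstream of Dusp21, a phosphatase gene, values were 48.3, 37.3 and 35.7 CPM in the adult libraries and 80.3, 67.97 and 62.7 CPM in the P10 libraries. The P10 libraries were all higher (log2 fold change -0.80 ± 0.16 (SE), adjusted p = 0.00189). Downstream of Pls3, which bundles actin filaments, they were 16.4, 31.7 and 22.04 CPM in the adult libraries and 55.03, 37.7 and 35.05 CPM in the P10 libraries, with the adult libraries spread over a wide range but below all P10 libraries (log2 fold change -0.87 ± 0.21 (SE), adjusted p = 0.008). Each of the 24 sites named for the smallest p-values kept its call whichever library was left out. Their direction without overlap follows from how they were chosen. The second wide distal ACS of Ctdspl, St3gal6 and Tpbg had the opposite sign (log2 fold changes 0.33, -0.21 and 0.070) and were not called.

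Transcription factors of islet cells had 9 wide distal ACS at 8 of the 52 listed genes. Their median log2 fold change was 0.0037, against -0.0076 over all ACS and -0.044 over the 754 narrower distal ACS of the list. Of these narrower ACS 11.7% were Up and 9.15% Down, against 12.3 and 6.63% of all ACS. Of the 9, 1 was called Up, at Irx2, a homeobox gene of alpha cells. Values there were 154, 113 and 136 CPM in the adult libraries and 119.8, 89.4 and 105 CPM in the P10 libraries. P10 replicate 1 was above adult replicate 5, so the groups overlapped (log2 fold change 0.36 ± 0.15 (SE), adjusted p = 0.165), and the call was lost without adult replicate 4, adult replicate 6, P10 replicate 2 or P10 replicate 3 (adjusted p from 0.301 to 0.599). It was also lost with DESeq2, column sums or total reads. A second site of Irx2 and those of Rfx3, Isl1, Meis1, Meis2, Mnx1, Bcl11a and Sox11 were not called, with log2 fold changes from -0.30 to 0.42. The strongest uncalled one, chosen after its values were seen and 124210 bp upstream of Mnx1, a homeobox gene of beta cells, had 80.6, 62.6 and 77.6 against 74.05, 80.03 and 77.1 CPM, with adult replicate 5 lowest and the other libraries close together. When gene IDs without a symbol were read with their RefSeq names, the list grew to 11 wide distal ACS, 3 of them Up, the additions being the Sox4 sites.

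Hormone, granule and glucose genes had 4 wide distal ACS at 3 of 50 listed genes, with a median log2 fold change of -0.27, against 0.027 over the 276 narrower distal ACS of the list (18.1% Up, 8.33% Down) and -0.0076 over all ACS. The called one lies 90 bp beyond the end of Gcg, the glucagon gene, and was Down (chromosome 3, 55107160 to 55108182), 1 of the 4 against 6.63% of all ACS. Values were 7.50, 5.94 and 6.45 CPM in the adult libraries and 15.2, 5.63 and 11.7 CPM in the P10 libraries. P10 replicate 2 was as low as the adult libraries and P10 replicates 1 and 3 were higher (log2 fold change -0.72 ± 0.29 (SE), adjusted p = 0.125). The call was lost without adult replicate 5, adult replicate 6, P10 replicate 1 or P10 replicate 3 (adjusted p from 0.212 to 0.47), and also with limma voom. Fewer cells of a type and less accessibility per cell cannot be told apart in such mixed samples. The stronger of 2 sites at Slc2a2, the glucose transporter of beta cells, lies 13576 bp upstream with 36.1, 31.9 and 37.3 CPM in the adult libraries and 54.2, 34.6 and 27.8 CPM in the P10 libraries. Only P10 replicate 1 stood out there (log2 fold change -0.15 ± 0.20 (SE), adjusted p = 0.739). With RefSeq names a site inside Cpe, the carboxypeptidase of secretory granules, joins the list and is given after its values were seen, with 61.00, 49.8 and 49.4 against 52.9, 32.5 and 37.2 CPM (log2 fold change 0.38 ± 0.18, adjusted p = 0.207). Of the 5 sites then listed, 1 was Up without adult replicate 5, without P10 replicate 1 or by limma voom, and without adult replicate 6 a site other than that at Gcg was Down.

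Genes of the cell cycle and of juvenile growth had 7 wide distal ACS at 5 of 44 listed genes, with a median log2 fold change of 0.26, against 0.022 over the 396 narrower distal ACS of the list (15.2% Up, 7.83% Down) and -0.0076 over all ACS. Of the 7, 2 were Up, against 12.3% of all ACS. Upstream of Igf1r, the receptor of insulin-like growth factor 1, values were 79.6, 57.8 and 59.6 CPM in the adult libraries and 51.8, 36.2 and 36.3 CPM in the P10 libraries. All adult libraries were above all P10 libraries (log2 fold change 0.66 ± 0.17 (SE), adjusted p = 0.014), and the call held without any 1 library. Inside Yap1, the coactivator of the Hippo pathway, values were 31.5, 25.5 and 28.2 CPM in the adult libraries and 18.1, 22.5 and 23.9 CPM in the P10 libraries. The groups were separate but close (log2 fold change 0.40 ± 0.18 (SE), adjusted p = 0.199), and the call held only without adult replicate 5 and was lost without any other single library (adjusted p from 0.232 to 0.433). It was also lost with median-of-ratios size factors, column sums, total reads, cyclic loess, DESeq2 or autosomes alone, so it held in 4 of 15 alternatives. Ezh2, the methyltransferase of Polycomb complex 2, has 3 wide distal ACS within 14577 bp, summing to 432, 745 and 577 against 624, 588 and 537 CPM. The strongest of them had 186, 282 and 263 against 277, 253 and 247 CPM (log2 fold change -0.09 ± 0.15, adjusted p = 0.807), and adult replicate 4 was the lowest library at it.

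Nuclear receptors and clock genes had 9 wide distal ACS at 7 of 45 listed genes, with a median log2 fold change of -0.031, against -0.023 over the 377 narrower distal ACS of the list (13.5% Up, 7.43% Down) and -0.0076 over all ACS. By edgeR 0 of them were called, and 0 by DESeq2 and by limma voom, with 1 at an unadjusted p under 0.05. That 1, chosen after its values were seen, lies inside Thrb, the thyroid hormone receptor beta gene, with 41.7, 17.7 and 32.4 against 28.4, 17.3 and 18.4 CPM (log2 fold change 0.51 ± 0.24, adjusted p = 0.203). Without adult replicate 5, or without P10 replicate 1, 2 of the 9 were called Up. The strongest of the list, also of Thrb, had 53.04, 44.6 and 52.5 against 44.4, 54.9 and 54.1 CPM, and the libraries of both ages were mixed. Sites of Nr4a2 and Nr2f1, orphan receptors, were also chosen after their values were seen. They did not overlap between the ages and were not called, with 44.6, 38.5 and 44.3 against 54.4, 46.9 and 53.7 CPM at Nr4a2 and 28.9, 28.5 and 24.2 against 20.9, 22.7 and 22.5 CPM at the site 24410 bp from Nr2f1.

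Of the AP-1, CREB and immediate early genes, 3 of 42 had a wide distal ACS, with a median log2 fold change of -0.14, against -0.0023 over the 386 narrower distal ACS of the list (16.8% Up, 6.99% Down) and -0.0076 over all ACS (12.3% Up, 6.63% Down). Upstream of Bach2, a repressor related to AP-1, values were 63.3, 58.4 and 50.1 CPM in the adult libraries and 45.8, 39.9 and 40.1 CPM in the P10 libraries. All adult libraries were higher (log2 fold change 0.45 ± 0.16 (SE), adjusted p = 0.0767), and the call was lost without adult replicate 4, P10 replicate 2 or P10 replicate 3 (adjusted p from 0.22 to 0.31). Inside Crem, a regulator that answers to cyclic AMP, values were 35.2, 32.6 and 36.9 CPM in the adult libraries and 44.4, 46.1 and 44.2 CPM in the P10 libraries. All adult libraries were lower (log2 fold change -0.36 ± 0.16 (SE), adjusted p = 0.176), and the call held only without P10 replicate 1 and was lost without any other single library (adjusted p from 0.236 to 0.386). The third, of Creb5, given after its values were seen, had 31.4, 28.3 and 30.6 against 38.3, 33.9 and 27.4 CPM and was not called.

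The 1184 wide distal ACS are assigned to 1000 different genes. A single one was assigned to 870 genes, 2 or more to 130 and 3 or more to 32. They are scattered widely, with a median gap of 560034 bp to the next wide distal ACS and of 8346 bp to the next ACS of any kind. At gaps of at most 50 kb, 140 of them form 59 runs, and 13 of these runs have 3 or more. In 4 runs 2 or more were called, and in 3 of the 4 the calls had 1 direction.

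Most wide distal ACS, 7 each, belong to Bbx, an HMG box gene, and to Zfp868, a zinc finger gene. The 7 near Bbx lie between 55507337 and 56222756 on chromosome 11 and sum to 233, 203 and 226 against 208, 204 and 235 CPM. The libraries were alike, the log2 fold changes ran from -0.13 to 0.27, and 0 were called by edgeR, by DESeq2 or by limma voom, with 0 at an unadjusted p under 0.05. Without adult replicate 5, 1 was called Up.

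The 7 near Zfp868 lie within 96355 bp on chromosome 16 and sum to 232, 440.5 and 394 against 244, 295 and 286 CPM. Adult replicates 5 and 6 were high, and adult replicate 4 was the lowest library of all. All 7 log2 fold changes were positive, from 0.21 to 0.52. Of the 7, 2 were called Up, against 12.3% of all ACS and 16.7% of the narrower distal ACS of chromosome 16. Without adult replicate 4 all 7 were called Up, and without adult replicate 5, adult replicate 6, P10 replicate 1 or P10 replicate 2 the count was 0. Without P10 replicate 3 it was 1. With cyclic loess both calls were lost, and with DESeq2 or column sums 1 of them. A short way along the same chromosome, 5 wide distal ACS assigned to Lzts1, noticed after their values were seen, sum to 262, 481 and 432 against 264, 319 and 290.2 CPM. The libraries stood in the same order, and 4 of the 5 were Up, against 12.3% of all ACS. The count was 5 without adult replicate 4, and 0 without adult replicate 5, adult replicate 6 or P10 replicate 1. It was 2 without P10 replicate 2 and 1 without P10 replicate 3. DESeq2 called 2 of them Up and limma voom 3.

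Other groups also moved with 1 library. The 6 near Rras2, a GTPase of the Ras family, lie 1736353 to 2314032 bp from the gene on chromosome 1 and sum to 2574, 3847 and 3006 against 2467, 2922 and 3056 CPM. Adult replicate 5 was the highest and the other libraries were close together. Of the 6, 0 were called by edgeR, DESeq2 or limma voom, with 0 at an unadjusted p under 0.05, and 1 was called Up without adult replicate 4. The 5 near LOC100359783 on chromosome 19 sum to 307, 311 and 499 against 292, 256 and 348 CPM, with adult replicate 6 highest. The strongest of these, with 209.9, 168 and 319 against 170.0, 134 and 181 CPM, was Up with overlap (log2 fold change 0.52 ± 0.18, adjusted p = 0.0589), and not so without adult replicate 6 or P10 replicate 2 (adjusted p from 0.347 to 0.544).

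At the 5 near LOC100360856, on chromosome 9, the order was different. Their sums were 144, 279 and 126 against 165, 219 and 328 CPM. Adult replicate 5 lay between P10 replicates 2 and 3, and adult replicates 4 and 6 were below all of them. By edgeR 0 of the 5 were called, with 1 at an unadjusted p under 0.05 and 0 calls by DESeq2 or limma voom. Without adult replicate 5 all 5 were Down, and without P10 replicate 1 there was 1. The 4 near Gad2, which makes GABA in beta cells, were looked at after the values were seen and sum to 516, 957 and 278 against 530.1, 459 and 469 CPM. Here adult replicate 5 was the highest and adult replicate 6 the lowest, 0 were called by edgeR, DESeq2 or limma voom, with 0 at an unadjusted p under 0.05, and all 4 were Up without adult replicate 6. Lzts1 and Ppp1r14c also have 5 sites each, and alphabetical order put LOC100359783 and LOC100360856 before them.

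In 5 genes, wide distal ACS were called in opposite directions, and the pairs were chosen after their values were seen. Abhd10, a lipid hydrolase gene, has them close together. The site at chr11:60528609-60529718 had 8.13, 8.28 and 9.54 CPM in the adult libraries and 13.99, 10.9 and 14.5 CPM in the P10 libraries and was Down (log2 fold change -0.61 ± 0.23 (SE), adjusted p = 0.0964). The one at chr11:60548903-60549958 had 52.5, 44.3 and 52.98 CPM in the adult libraries and 40.7, 37.4 and 37.4 CPM in the P10 libraries and was Up (log2 fold change 0.37 ± 0.16 (SE), adjusted p = 0.159). At both the groups were separate, in opposite order. The Down call was lost without adult replicate 4 or P10 replicate 3 (adjusted p of 0.216 and 0.274), and the Up call without adult replicate 4, adult replicate 6, P10 replicate 2 or P10 replicate 3 (adjusted p from 0.293 to 0.433) and with column sums or total reads.

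Sec24b, a coat protein of vesicles that leave the endoplasmic reticulum, has a site 12888 bp downstream with 49.8, 40.2 and 45.6 against 29.4, 39.4 and 33.3 CPM, called Up (log2 fold change 0.41 ± 0.17, adjusted p = 0.139). A site 121781 bp upstream had 25.3, 26.5 and 28.2 against 38.6, 43.1 and 42.7 CPM and was Down (log2 fold change -0.64 ± 0.17, adjusted p = 0.0129). The adult libraries were higher at the former and lower at the latter, without overlap at either. Galnt3, which starts mucin-type glycans, had 28.3, 44.5 and 39.96 against 27.5, 28.7 and 27.7 CPM downstream (Up with overlap, log2 fold change 0.42) and 26.4, 26.3 and 35.1 against 39.5, 41.3 and 44.9 CPM upstream (Down, -0.52). Tgds and Veph1 had Down sites at log2 fold changes of -0.41 and -0.69 and Up sites at 0.41, 0.44 and 0.46, the Up sites with overlap and the Down sites without. The Down calls at Sec24b, Galnt3 and Veph1 held without any 1 library. The other calls in these 4 genes were each lost without 2 to 5 of the libraries, with adjusted p from 0.204 to 0.487. With column sums or total reads all the Up calls in these genes were lost, with DESeq2 also those at Galnt3, Tgds and the first Up site of Veph1, and with cyclic loess that at Galnt3. Calls in 1 direction were seen at pairs near Prkg2 and Zbtb7c, all 4 Up and without overlap, with log2 fold changes from 0.37 to 0.47, each lost without 2 to 5 of the libraries (adjusted p from 0.227 to 0.493). With total reads all 4 were lost, and with column sums all but 1 of Zbtb7c. With cyclic loess 1 of Prkg2 was lost.

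Most other ACS close to a called wide distal ACS were not called themselves. Within 10000 bp of the Up sites lie 139 other ACS, of which 21.6% were Up and 5.04% Down. Within the same distance of the Down sites lie 49, of which 4.08% were Up and 18.4% Down. Near the uncalled wide distal ACS lie 1120, with 9.11% Up and 4.11% Down. Over all ACS the shares were 12.3% Up and 6.63% Down. These neighbours share their libraries with the sites they surround, and no test was made.

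The TSS ACS of the assigned genes were called as follows. Of the 110 Up sites, 68 have a gene with a TSS ACS, and 2 of these TSS ACS were Up (2.94%), 4 Down (5.88%) and 62 not called, against 12.3% Up and 6.63% Down of all ACS. Of the 70 Down sites, 43 have one, and 6 of these were Down (13.95%, against 6.63% of all ACS) and 37 not called. For the narrower distal ACS the shares were 5.13% Up and 5.13% Down near Up sites and 2.96 and 13.5% near Down sites. Most ACS are distal, so the shares of all ACS are no close measure for TSS ACS. Of the wide TSS ACS, 1.88% were Up and 6.18% Down. These shares were not compared by a test.

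The widest sites were not called. The largest, of 2817 bp, lies 58096 bp downstream of Rwdd1 on chromosome 20 and had 130.0, 191 and 137 CPM in the adult libraries and 111, 146 and 123 CPM in the P10 libraries. A neighbour of 2777 bp at chr20:29291704-29294480 had 113, 188 and 122 against 102, 134 and 116 CPM. Near Smpdl3a, a phosphodiesterase gene, 2693 bp had 99.9, 172 and 124 against 95.4, 115 and 119 CPM, and inside LOC100911825, an Fc receptor gene named Fcgr2al1 in RefSeq, 2519 bp had 80.9, 188 and 162 against 118, 127 and 102 CPM. In all 4, adult replicate 5 was the highest library and the groups overlapped, with log2 fold changes from 0.26 to 0.31. The fifth, 2384 bp near RGD1305645 (Ecrg4 in RefSeq), had 289, 257 and 308 against 252, 228 and 220.5 CPM, without overlap (log2 fold change 0.29 ± 0.13, adjusted p = 0.204). Of the 5, 0 were called by edgeR and DESeq2 and 1 by limma voom, with 1 at an unadjusted p under 0.05. Without adult replicate 4 the first 4 named were Up (adjusted p from 0.0121 to 0.184), and the fifth was Up without adult replicate 5 (adjusted p = 0.0405) or P10 replicate 1 (adjusted p = 0.192).

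The strongest sites behaved likewise. The first, 1789453 bp upstream of Rras2, had 1750.1, 2584 and 2144 CPM in the adult libraries and 1725, 1951 and 2012 CPM in the P10 libraries. The next, 50582 bp upstream of Atg7, an enzyme of autophagy, had 1186, 2148 and 1775 CPM in the adult libraries and 1452, 1575 and 1448 CPM in the P10 libraries. Near Gas8, a cilium gene, values were 671, 1445 and 899.9 against 903, 839 and 655 CPM, near Emr4, an adhesion receptor gene, 431, 444 and 262 against 232, 355 and 461 CPM, and near Olr898, an odorant receptor gene, 316, 363 and 331 against 239, 333 and 396 CPM. Adult replicate 5 was the highest adult library at each of the 5. Of these 0 were called by edgeR, DESeq2 or limma voom, with 0 at an unadjusted p under 0.05, and the first 3 were Up without adult replicate 4 (adjusted p of 0.0986, 0.0338 and 0.0241).

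Some sites with a large spread within an age, chosen after their values were seen, show how far libraries can differ. A site 991574 bp from Cited2, a coactivator gene, had 63.3, 251 and 180.0 CPM in the adult libraries and 192, 97.6 and 129 CPM in the P10 libraries. Adult replicates 4 and 5 were the lowest and the highest of all (log2 fold change 0.24 ± 0.27 (SE), adjusted p = 0.697), and it was Up without adult replicate 4 (adjusted p = 0.0462). Downstream of Herpud1, a gene of the response to stress in the endoplasmic reticulum, values were 46.99, 29.8 and 15.1 CPM in the adult libraries and 78.7, 30.2 and 36.2 CPM in the P10 libraries, and the call was Down although the groups overlapped (log2 fold change -0.65 ± 0.29 (SE), adjusted p = 0.178). The call at Herpud1 was lost without adult replicate 5, adult replicate 6 or P10 replicate 1 (adjusted p from 0.327 to 0.857), and also with DESeq2 or limma voom.

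MicroRNA genes are the nearest genes of 18 wide distal ACS, and 16 of these genes lie on the same chromosome in RefSeq. Of the 18 sites, those near Mir216b and Mir802 were Up, that near Mir674 was Down and the rest were not called. Over all ACS, 12.3% were Up and 6.63% Down. The site 47977 bp upstream of Mir216b, a microRNA known from the pancreas, is among the 12 leading Up sites, and the others were looked at after their values were seen. Its values were 34.6, 35.2 and 45.9 CPM in the adult libraries and 18.5, 22.3 and 19.6 CPM in the P10 libraries, with every adult library higher (log2 fold change 0.94 ± 0.18 (SE), adjusted p = 0.000871). Upstream of Mir802, values were 30.00, 20.7 and 24.1 CPM in the adult libraries and 17.5, 16.9 and 16.7 CPM in the P10 libraries, and the site was Up (log2 fold change 0.55 ± 0.19 (SE), adjusted p = 0.0733), a call lost without adult replicate 4, P10 replicate 2 or P10 replicate 3 (adjusted p from 0.206 to 0.313). Downstream of Mir674 they were 27.2, 16.3 and 25.4 CPM in the adult libraries and 34.7, 35.4 and 37.6 CPM in the P10 libraries, without overlap and Down (log2 fold change -0.65 ± 0.19 (SE), adjusted p = 0.028), and the call held without any 1 library. A wide distal ACS near Mirlet7f2 on the X chromosome, with 30.9, 26.6 and 19.5 against 36.8, 32.95 and 31.5 CPM, had no overlap and was not called (log2 fold change -0.39 ± 0.18, adjusted p = 0.215), but was Down without adult replicate 4 (adjusted p = 0.106). Mature microRNAs of Mir216b, Mir674 and Mirlet7f2 from RefSeq (GRCr8) are printed 5′ to 3′ with their seed, bases 2 to 8, in capitals, since they say which microRNA a site lies near.
rno-miR-216b-5p: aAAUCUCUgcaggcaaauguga
rno-miR-216b-3p: cACACUUAcuuguagagauu
rno-miR-674-5p: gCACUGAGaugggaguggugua
rno-let-7f-5p: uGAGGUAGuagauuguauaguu

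Mir129-1 and Mir129-2, which share the mature miR-129-5p, each have an upstream wide distal ACS, and TSS ACS of both were called Up. The distal sites had 49.2, 34.3 and 46.4 against 59.2, 36.9 and 35.8 CPM near Mir129-1 and 33.5, 19.3 and 25.01 against 29.4, 25.1 and 27.2 CPM near Mir129-2. The libraries of both ages were mixed, and neither was called (log2 fold changes -0.03 and -0.07). The TSS ACS rose from a mean of 8.70 CPM in P10 to 15.2 CPM in adult libraries at Mir129-1 (log2 fold change 0.80, adjusted p = 0.0275) and from 3.49 to 5.87 CPM at Mir129-2 (0.76, adjusted p = 0.123).
rno-miR-129-5p: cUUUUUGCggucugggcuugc

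The 2 wide distal ACS that overlap a gene start are those of Synm and Rnf40, and both are recorded at exactly 1000 bp from it. They were singled out for this reason after the values were seen. At Synm, which encodes an intermediate filament protein, values were 24.5, 21.6 and 23.3 CPM in the adult libraries and 29.8, 31.5 and 29.6 CPM in the P10 libraries. All adult libraries were lower (log2 fold change -0.39 ± 0.17 (SE), adjusted p = 0.186), and the call held only without P10 replicate 1 and was lost without any other single library (adjusted p from 0.21 to 0.407). At Rnf40, a ubiquitin ligase that acts on histone H2B, values were 33.2, 26.8 and 16.6 CPM in the adult libraries and 41.5, 29.3 and 23.5 CPM in the P10 libraries, with overlap and no call (log2 fold change -0.29 ± 0.22 (SE), adjusted p = 0.496). Since these sites cover the starts, the 250 bases before each start are printed from RefSeq (GRCr8, Synm at chr1:130773825-130774074 on the minus strand, Rnf40 at chr1:191632856-191633105 on the plus strand), with CCAAT on either strand in capitals. The Synm window holds 1 CCAAT and the Rnf40 window 2, and GGGCGG is found 0 times on either strand of both. Of 33469 such windows in RefSeq, 34.0% hold CCAAT and 30.5% hold GGGCGG on at least 1 strand. A match describes the letters alone.
Synm: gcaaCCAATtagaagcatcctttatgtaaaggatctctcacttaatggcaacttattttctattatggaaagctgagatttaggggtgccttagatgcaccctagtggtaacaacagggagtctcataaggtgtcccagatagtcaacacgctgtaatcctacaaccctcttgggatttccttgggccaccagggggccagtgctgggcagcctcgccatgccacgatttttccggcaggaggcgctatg
Rnf40: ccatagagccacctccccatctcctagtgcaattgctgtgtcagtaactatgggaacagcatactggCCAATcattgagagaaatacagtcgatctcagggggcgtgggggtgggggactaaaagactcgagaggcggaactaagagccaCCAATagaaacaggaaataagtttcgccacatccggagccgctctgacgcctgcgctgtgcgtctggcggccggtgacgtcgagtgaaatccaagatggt

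The limit of 1000 bp separates sites that look alike. Just inside it, 5 distal ACS have exactly 1000 bp, and 3 of them are at Erap1 with 14.5, 25.5 and 20.8 against 14.9, 17.6 and 21.6 CPM, Tll1 with 41.9, 26.1 and 26.9 against 36.95, 31.2 and 40.02 CPM and Galnt1 with 31.2, 28.5 and 34.4 against 33.3, 34.7 and 29.97 CPM. Just outside, 7 have 999 bp, and 3 of them are at Hmgn5b with 23.9, 24.5 and 23.6 against 23.9, 32.5 and 26.4 CPM, at chr3:48254406-48255404 with 30.9, 23.7 and 28.9 against 27.3, 29.3 and 25.7 CPM and at Atg4c with 18.98, 17.1 and 14.7 against 16.7, 16.5 and 15.4 CPM. Adult and P10 values overlap at all 6, and the site at Tll1 was Down without adult replicate 4 (adjusted p = 0.181).

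Markers of cell types were read at the TSS ACS of their genes, as summed CPM per library in the same order of adult and P10 replicates. For beta cells, 7 of 10 markers have a TSS ACS, with 245, 179 and 214 against 353, 219 and 238 CPM (most in Ins1, none for Mafa, Slc2a2 and G6pc2). For alpha cells it is 7 of 9, with 198, 169.6 and 169.5 against 187, 189 and 206 CPM (most in Irx2, none for Ttr and Dpp10). The groups overlapped in both, and the sums differed little for alpha cells, whose markers include Gcg and Irx2. Delta, PP and epsilon markers, with 5 of 7 genes, had 33.98, 37.2 and 37.1 against 45.2, 51.7 and 50.1 CPM (most in Hhex, none for Ppy and Ghrl). Duct markers, with 6 of 9, had 50.8, 42.7 and 37.9 against 59.5, 64.3 and 59.5 CPM (most in Cftr, none for genes such as Krt7 and Spp1). Both were lower in every adult library.

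Of the immune markers only Cd74 has a TSS ACS, 1 of 11, with 31.9, 26.4 and 36.7 against 16.2, 15.9 and 17.6 CPM, higher in every adult library, and none was found for genes such as Ptprc, Cd68, Csf1r, Spi1, Itgam, Lyz2, Laptm5, Aif1 and Cd3e. Acinar markers, with 3 of 15 genes, had 25.9, 27.1 and 18.4 against 29.3, 24.5 and 24.2 CPM (most in Bhlha15), and the digestive enzyme genes among them, such as Prss1, Cpa1 and Pnlip, have no TSS ACS. Endothelial markers, 3 of 11, had 25.8, 29.5 and 34.3 against 32.2, 40.01 and 36.8 CPM (most in Tek, none for Pecam1 and Cdh5). Mesenchymal markers, 4 of 8, had 15.5, 19.1 and 22.3 against 20.96, 24.9 and 20.4 CPM (most in Col1a1), and Schwann and glial markers, 1 of 6, had 3.98, 6.52 and 4.64 against 5.21, 5.35 and 4.07 CPM (Ngfr). Erythroid markers, 2 of 5, had 29.1, 26.98 and 24.4 against 31.4, 25.6 and 21.8 CPM (most in Klf1), and proliferation markers, 7 of 8, had 235, 228 and 227 against 210.3, 257 and 234 CPM (most in Ccna2, none for Mki67). Apart from the Cd74 signal and the delta and duct lists, the groups overlapped. The part of cell composition in the values of the wide distal ACS was not tested. Of these lists, beta, alpha, delta and acinar markers have 9 wide distal ACS together, of which 1 was Up and 2 were Down, against 12.3 and 6.63% of all ACS.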

How the data were processed

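ATAC-seq libraries of islets from 3 adult and 3 P10 samples were analysed. Per the submitters' processing notes, the tools were FastQC 0.11.2, BWA 0.7.13, SAMtools 1.3 and MACS2 2.1.1. The authors deposited unscaled counts of Tn5 integrations per ACS with Rn5 coordinates, widths, nearest genes and classes. Columns were assigned to samples by the letter A or P and the replicate number. The removal of PCR duplicates is not stated. Of 101941 entries, 338 repeat a region listed for a second gene, and each region was used once. The columns of the authors' own test (logFC, logCPM, F, p and FDR) were not used.

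The counts of all 6 libraries entered edgeR 4.0.16 in R 4.3.3 (TMM, no filter, quasi-likelihood F test with age as the only term, Benjamini-Hochberg adjustment over all 101603 ACS). Libraries held 11903909, 10319487 and 7916919 (adult) and 21168463, 13491534 and 18108935 (P10) integrations in ACS, with TMM factors from 0.93 to 1.04. At the median wide distal ACS the log2 fold change had a standard error of 0.18. Standard errors (SE) were derived as the absolute log2 fold change divided by the square root of the F statistic. The edgeR test weighs the difference between the ages against the spread within them, moderated over all ACS. That spread is between single rats in adults and between litters at P10. Wilson intervals cover counting error alone. The shares were tested by exact permutation of the library labels. The procedure was tested on simulated data.

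The members and gene lists were chosen with earlier results of these data known. Named are the 12 Up and 12 Down wide distal ACS with the smallest p among those without overlap, the 5 widest, the 5 strongest, the called (at most 6) and the strongest of each list, the 5 genes with most sites, and 3 sites on either side of the width limit. Sites whose gene has no symbol in the table are named by position. Others are marked in the text as chosen after their values were seen. A site and 2 markers are not reported here.

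Alternatives were median-of-ratios size factors, column sums or total reads as library sizes, cyclic loess with limma-trend (limma 3.58.1), limma voom, DESeq2 1.42.0, a filter on low counts (minimum 10, total 15), autosomes alone, widths of 800 or 1200 bp, distal by the shortest distance to a gene, every entry kept, a stricter FDR limit of 0.05, and the omission of each library in turn. Gene names, mature microRNAs and promoters come from RefSeq (GRCr8), matched by gene ID for 1167 of 1184 sites, of which 1143 are on the same chromosome there. Sequences of the ACS were not analysed here.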

Additional observations from a re-analysis of the deposited data

How the results depend on the processing

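With median-of-ratios size factors, DESeq2, limma voom, the filter on low counts, autosomes alone, every entry kept or distal by the shortest distance, the counts of Up and Down wide distal ACS stayed within 1.5 times those reported. Column sums as library sizes gave 76 Up, 156 Down and a median log2 fold change of -0.080 (-0.10 over all ACS), and cyclic loess gave 92 Up, 157 Down and a median of -0.062 (-0.033 over all ACS). With total reads as library sizes the medians were -0.82 for wide distal and -0.84 for all ACS, so this scaling shifts all sites together. Each adult library had fewer integrations in ACS per read than each P10 library. Under total reads edgeR called 0 Up, with 0 at an unadjusted p under 0.05, and 952 Down, against 88 and 71 by DESeq2 and 111 and 70 by limma voom under their own scaling. A limit of 800 bp gave 457 Up and 230 Down of 3571 sites, 1200 bp gave 28 and 28 of 433, and an FDR under 0.05 left 48 and 26. The width and FDR limits change the counts by construction, and the cause of the other differences was not tested.

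Leaving out 1 library at a time gave 46 to 153 Up and 39 to 71 Down. The median ran from -0.013 to 0.033. The share of integrations in wide distal ACS differed by -0.21 to 0.083 percentage points between the ages, the log2 ratio to narrower distal ACS by -0.13 to -0.068 (groups overlap at 1200 bp, exact p = 0.3), the share inside genes by 0.18 to 0.69 percentage points and the share of the 10 strongest by -0.39 to 2.24 percentage points. The share inside genes gives no value with distal by the shortest distance, which leaves out sites inside genes.

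With total reads, log2 fold changes of called Up sites turned negative at Irx2 (-0.50), Igf1r (-0.21), Yap1 (-0.41), Bach2 (-0.39), Zfp868 (-0.32 and -0.38), LOC100359783 (-0.35), Mir802 (-0.29), Veph1 (-0.36 and -0.34), Tgds (-0.44), Abhd10 (-0.48), Prkg2 (-0.41 and -0.47), Zbtb7c (-0.39 and -0.45), Sec24b (-0.41), Galnt3 (-0.41) and the second Sox4 site (-0.081). Relative to the shift of all ACS these values are positive. None of the called sites followed in this way turned its direction under another alternative, and those of Lzts1 were not followed. No paired analysis was possible because the groups share no replicate numbers.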
